A study of Homo sapiens with 5 samples.

Results

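Aminoacyl-tRNA synthetases are the enzymes that join each amino acid to its transfer RNA, the charging step that feeds the ribosome. Most amino acids have one nuclear gene for the cytosolic enzyme (such as CARS1, for cysteine) and another for the mitochondrial enzyme (CARS2). GARS1, for glycine, and KARS1, for lysine, serve both compartments from one gene. Several cytosolic synthetase genes are known targets of ATF4, the transcription factor that cells use to raise amino acid supply when charged transfer RNA runs short, while the mitochondrial enzymes read a separate set of transfer RNAs encoded by mitochondrial DNA. The 35 synthetase genes described here were taken by symbol as members of this enzyme family, with no threshold on their values, and all 35 had a value among the 18239 genes measured. They comprise 17 cytosolic genes, 16 mitochondrial genes and the 2 genes for both compartments, read by 88 probe sets that name no other gene.

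The cells were GFP-SAS, a squamous cell carcinoma line that the labels place in the tongue, treated for 24 h with DMSO vehicle, with 100 nM MLN8237 (alisertib, an inhibitor selective for the mitotic kinase Aurora A), with a non-targeting siRNA (siNT), or with 10 nM of an siRNA against AURKA, the gene of that kinase (siAURKA-1 or siAURKA-2). The dose of siNT is not used here. The labels name 5 treatments of this single line and give 1 Affymetrix GeneAtlas array for each, so the differences below have no replicate check, no test could be run, and precision is limited by there being so few arrays. The values are taken as log2 and had been centred per probe set, so that 0 is the middle of the 5 arrays for that probe set; a gene's value is the median of its probe sets. They compare arrays and hold no level, which also means that weakly expressed genes could not be set aside and that the squamous identity of the line could not be checked against its markers. A member was counted as lower or higher at 1.5-fold, a log2 difference of 0.58, beside the share of all measured genes past the same fold. AURKA itself stood at 0.15 with DMSO, 0.64 with MLN8237, 0.00 with siNT, -3.36 after siAURKA-1 and -2.64 after siAURKA-2, lowest on the arrays of the siRNAs that target it. The RNA was extracted from whole cultures, so less RNA per cell and fewer expressing cells cannot be told apart.

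Most cytosolic synthetase genes had lower values after siAURKA-1 and values near the controls after the other treatments. With siAURKA-1, 14 of the 17 cytosolic genes lay below siNT, with a median log2 difference of -0.25, and CARS1, SARS1, WARS1 and YARS1 passed 1.5-fold (4 of 17, or 23.5%, where 4.48% of all genes were that far below). None of the 17 was at least 1.5-fold higher, where 2.57% of all genes were. The 16 mitochondrial genes were divided evenly, 8 below and 8 above siNT, with a median of -0.01; 1 was at least 1.5-fold lower (NARS2) and 2 higher (CARS2 and HARS2). The cytosolic median thus lay -0.24 from the mitochondrial one, and -0.34 when DMSO was the control in place of siNT. The median of all genes was 0.00 in both cases. Of the 18239 genes, 7690 lay below siNT with siAURKA-1, 8609 above and 1940 at 0.

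**Figure D1:**
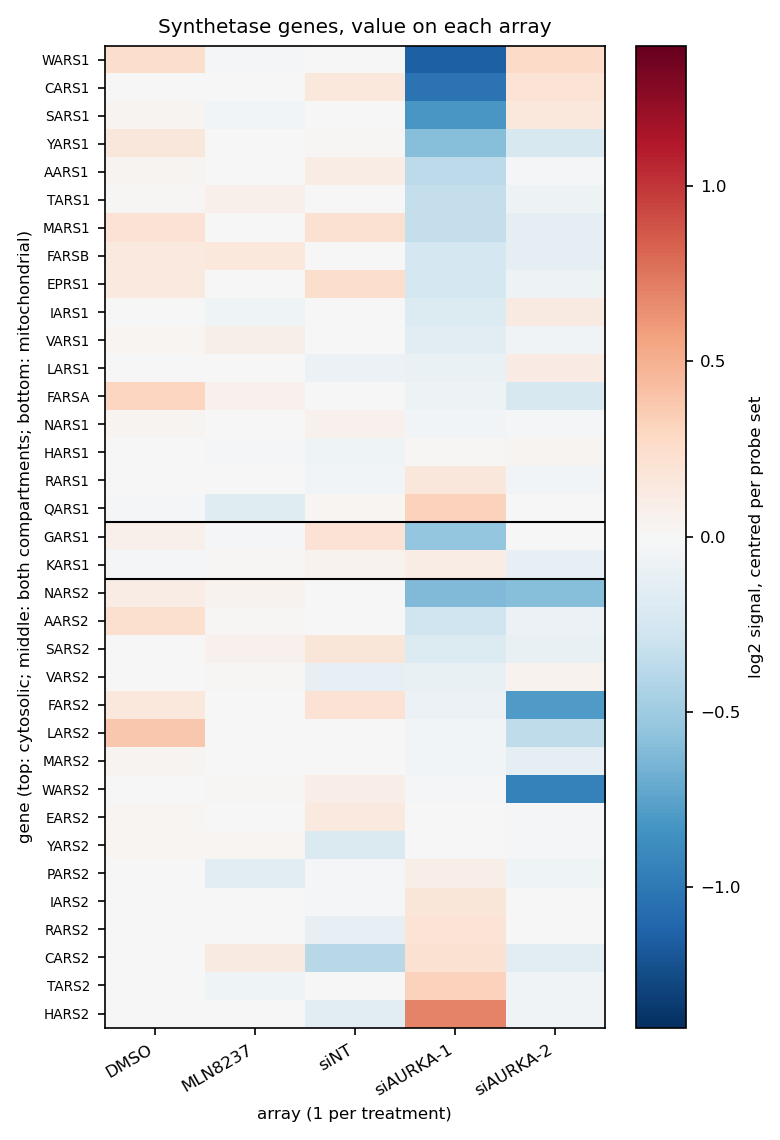
Value of each synthetase gene (rows) on each of the 5 arrays (columns), as log2 signal centred per probe set; blue is below and red above the middle array, and black lines part cytosolic genes, GARS1 and KARS1, and mitochondrial genes. The siAURKA-1 column is the lowest in 13 of the 17 cytosolic rows and in 3 of the 16 mitochondrial rows.

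The siAURKA-1 array gave the lowest of the 5 values for 13 of 17 cytosolic genes (76.5%) and for 3 of 16 mitochondrial genes (18.8%), where it was lowest for 20.9% of all genes. For mitochondrial genes siNT was lowest for 6 (37.5%, against 16.9% of all genes) and siAURKA-2 for 5 (31.25%, against 17.7%). The siNT array was thus lowest in a larger share of mitochondrial genes than of all genes, which was not tested. Differences of mitochondrial genes from siNT depend on that array. The siAURKA-1 array was highest for 6 mitochondrial genes (37.5%) and 2 cytosolic ones (11.8%), against 27.8% of all genes. Most cytosolic genes were thus at their lowest with siAURKA-1, whereas the mitochondrial share (18.8%) was near that of all genes (20.9%).

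CARS1, the cytosolic cysteinyl-tRNA synthetase gene, had the lowest value relative to siNT of all members. It stood at 0.00 with DMSO, -0.01 with MLN8237, 0.15 with siNT, -1.03 after siAURKA-1 and 0.19 after siAURKA-2. The siAURKA-1 array stood alone, 2.27-fold below siNT (-1.18) and 2.04-fold below DMSO (-1.03), and its 3 probe sets all lay below siNT, between -0.87 and -1.29. In the ordering of all genes from lowest to highest difference CARS1 was number 161.

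WARS1 encodes the cytosolic tryptophanyl-tRNA synthetase, which is also known as an interferon-gamma-inducible protein. Its values were 0.24 with DMSO, -0.02 with MLN8237, 0.00 with siNT, -1.14 after siAURKA-1 and 0.27 after siAURKA-2. Against siNT it was 2.21-fold lower with siAURKA-1 (-1.14) and 1.20-fold higher with siAURKA-2 (0.27), so that the siRNAs lay on either side of the control. Of its 4 probe sets, 3 lay between -1.09 and -1.28 with siAURKA-1 and the fourth at 0.08.

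SARS1, for serine, stood at 0.03 with DMSO, -0.04 with MLN8237, 0.00 with siNT, -0.82 after siAURKA-1 and 0.15 after siAURKA-2. YARS1, for tyrosine, stood at 0.16, 0.00, 0.02, -0.59 and -0.22 on the same arrays in that order. Both were lowest with siAURKA-1, SARS1 by 1.76-fold and YARS1 by 1.52-fold against siNT, and each was read by a single probe set. YARS1 was also below both controls with siAURKA-2, whereas SARS1 was above them.

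The other 13 cytosolic genes differed from siNT by less than 1.5-fold with siAURKA-1, between -0.54 for MARS1, the methionyl enzyme that also charges the initiator transfer RNA, and 0.29 for QARS1, the glutaminyl enzyme. Next to MARS1 were EPRS1 (-0.48), whose single protein charges both glutamate and proline, AARS1 (-0.46), for alanine, and TARS1 (-0.33), for threonine. FARSB and FARSA, the beta and alpha subunits of the phenylalanyl enzyme, differed by -0.25 and -0.07. On the 5 arrays MARS1 stood at 0.20 with DMSO, 0.00 with MLN8237, 0.22 with siNT, -0.33 after siAURKA-1 and -0.13 after siAURKA-2. It was thus lowest with siAURKA-1 and next lowest with siAURKA-2. Its 5 probe sets were split, at -1.17, -0.97, -0.52, -0.42 and 0.00 against siNT with siAURKA-1. With siAURKA-2 they ranged from -0.75 to 0.00. With either siRNA, MARS1 thus had probe sets past 1.5-fold although its median was not. With siAURKA-1 against siNT, IARS1, for isoleucine, gave -0.19, VARS1, for valine, -0.15, and NARS1, for asparagine, -0.10. LARS1, the leucyl enzyme that also takes part in leucine sensing, gave -0.01. Only HARS1 (0.07), RARS1 (0.19) and QARS1 (0.29), for histidine, arginine and glutamine, lay above siNT.

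GARS1, the gene for both glycyl enzymes, was also lower with siAURKA-1. It stood at 0.07 with DMSO, -0.01 with MLN8237, 0.21 with siNT, -0.54 after siAURKA-1 and -0.01 after siAURKA-2, so that siAURKA-1 lay 1.68-fold below siNT (-0.75), with both probe sets below (-0.71 and -0.79). KARS1, the lysyl enzyme of both compartments, stood at -0.02, 0.02, 0.04, 0.10 and -0.12 in that order and differed from siNT by 0.06 with siAURKA-1. The shared use of one gene for both compartments thus went with different values in these 2 genes.

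**Figure D2:**
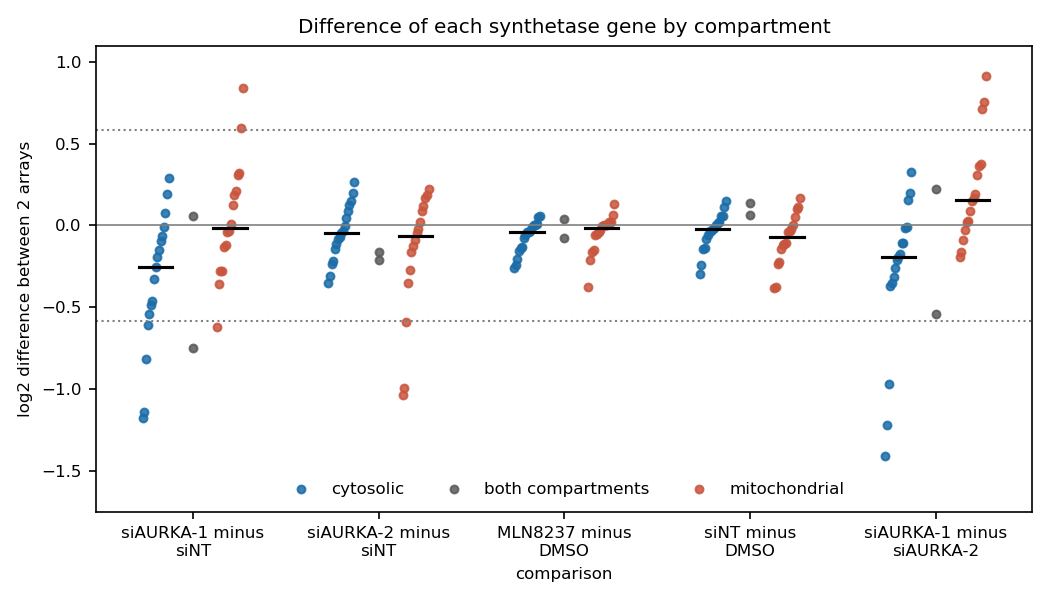
Log2 difference between 2 arrays for each synthetase gene (points) in 5 comparisons, coloured by compartment, with black bars at the cytosolic and mitochondrial medians and dotted lines at 1.5-fold. In siAURKA-1 minus siNT the cytosolic bar lies at -0.25 and the mitochondrial bar at -0.01; in MLN8237 minus DMSO and siNT minus DMSO no point passes a dotted line.

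The control arrays give a measure of how far these genes differ without either AURKA reagent, although their difference includes any effect of transfection against vehicle. Between siNT and DMSO no member was past 1.5-fold in either direction (0 of 35, where 0.554% of all genes were lower and 1.53% higher), and the largest size was 0.38, in LARS2 and CARS2, both lower with siNT. Against both controls at once, siAURKA-1 lay further below than 0.38 for 6 cytosolic genes (AARS1, CARS1, MARS1, SARS1, WARS1 and YARS1), for GARS1 and for 1 mitochondrial gene (NARS2), where 5.23% of all genes were, and further above for HARS2 alone, where 4.12% of all genes were. The same count for siAURKA-2 was 0 cytosolic genes and 3 mitochondrial genes, all lower (FARS2, NARS2 and WARS2), where 3.96% of all genes were.

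With DMSO in place of siNT, siAURKA-1 had the same 4 cytosolic genes past 1.5-fold downward (CARS1 -1.03, SARS1 -0.85, WARS1 -1.39 and YARS1 -0.75), with GARS1 (-0.61) and NARS2 (-0.73), where 3.57% of all genes passed. HARS2 (0.70) was the 1 member past it upward, where 3.27% of all genes were. For siAURKA-2 against DMSO 4 mitochondrial genes were lower (FARS2 -0.94, LARS2 -0.73, NARS2 -0.70 and WARS2 -0.94), where 2.55% of all genes were, and 0 members were higher, where 2.65% of all genes were. LARS2 alone was added by this control.

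Mitochondrial genes differed one by one. HARS2, for histidine, was the member furthest above siNT with siAURKA-1. It stood at 0.00 with DMSO, 0.00 with MLN8237, -0.14 with siNT, 0.70 after siAURKA-1 and -0.05 after siAURKA-2. The siAURKA-1 array stood apart from the other four, 1.79-fold above siNT (0.84), with both probe sets above (0.79 and 0.89). It was number 182 of all genes from the highest.

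HARS2 lies head to head with HARS1, its cytosolic counterpart, and both genes start within the same short stretch of chromosome 5, which is why that stretch is shown. The RefSeq start sites (GRCh38.p14) leave 84 bases between them, chr5:140691371-140691454, here on the strand of HARS2, with a GC share of 59.5%.
HARS1 to HARS2: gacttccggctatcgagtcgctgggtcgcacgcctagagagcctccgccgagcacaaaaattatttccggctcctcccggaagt
HARS1 stood at 0.00 with DMSO, -0.03 with MLN8237, -0.06 with siNT, 0.02 after siAURKA-1 and 0.03 after siAURKA-2. While HARS2 was 0.84 above siNT with siAURKA-1, HARS1 was 0.07 above it, a gap of -0.77 between genes that begin on either side of these bases.

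WARS2 and FARS2, the mitochondrial tryptophanyl and phenylalanyl enzymes, were low on the siAURKA-2 array. WARS2 stood at -0.01 with DMSO, 0.02 with MLN8237, 0.09 with siNT, -0.03 after siAURKA-1 and -0.95 after siAURKA-2, which is 2.05-fold below siNT (-1.04) and number 143 of all genes from the lowest. FARS2 stood at 0.15, 0.00, 0.20, -0.08 and -0.79 in the same order, 1.99-fold below siNT with siAURKA-2 (-0.99). The siAURKA-2 array was the lowest for both genes, and the remaining arrays lay between -0.03 and 0.09 for WARS2 and between -0.08 and 0.20 for FARS2.

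All 4 WARS2 probe sets lay below siNT with siAURKA-2, 3 of them between -0.92 and -1.23 and the fourth at -0.13. Both FARS2 probe sets did so as well (-0.75 and -1.23). For tryptophan, then, the cytosolic gene was low with siAURKA-1 and the mitochondrial gene with siAURKA-2.

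NARS2, the mitochondrial asparaginyl enzyme, was the only member past 1.5-fold with both siRNAs. It stood at 0.11 with DMSO, 0.05 with MLN8237, 0.00 with siNT, -0.62 after siAURKA-1 and -0.59 after siAURKA-2. Both siRNA arrays lay below the other three, by 1.54-fold and 1.51-fold against siNT, and by -0.73 and -0.70 against DMSO. The siRNA comparisons share the siNT array, and NARS2 is read by a single probe set.

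CARS2, the mitochondrial cysteinyl enzyme, lay 1.51-fold above siNT after siAURKA-1 (0.60), but this value depended on the control and on the probe sets. The array values were 0.00 with DMSO, 0.13 with MLN8237, -0.38 with siNT, 0.21 after siAURKA-1 and -0.16 after siAURKA-2, so siNT was the lowest. Against DMSO the difference was 0.21, and of its 3 probe sets 2 lay above siNT (0.60 and 0.84) and 1 below (-0.39).

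The other 13 mitochondrial genes differed from siNT by less than 1.5-fold with siAURKA-1, excluding HARS2, NARS2 and CARS2. The lowest were SARS2 (-0.36) and AARS2 (-0.28), and the highest TARS2 (0.32) and RARS2 (0.31), the arginyl enzyme linked to pontocerebellar hypoplasia. LARS2, for leucine, had its high value with DMSO (0.38), and stood at 0.00 with MLN8237, 0.00 with siNT, -0.04 after siAURKA-1 and -0.35 after siAURKA-2. It was therefore lower than DMSO by the same amount with the inhibitor and with the non-targeting siRNA (-0.38 each), in comparisons that share the DMSO array.

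**Figure D3:**
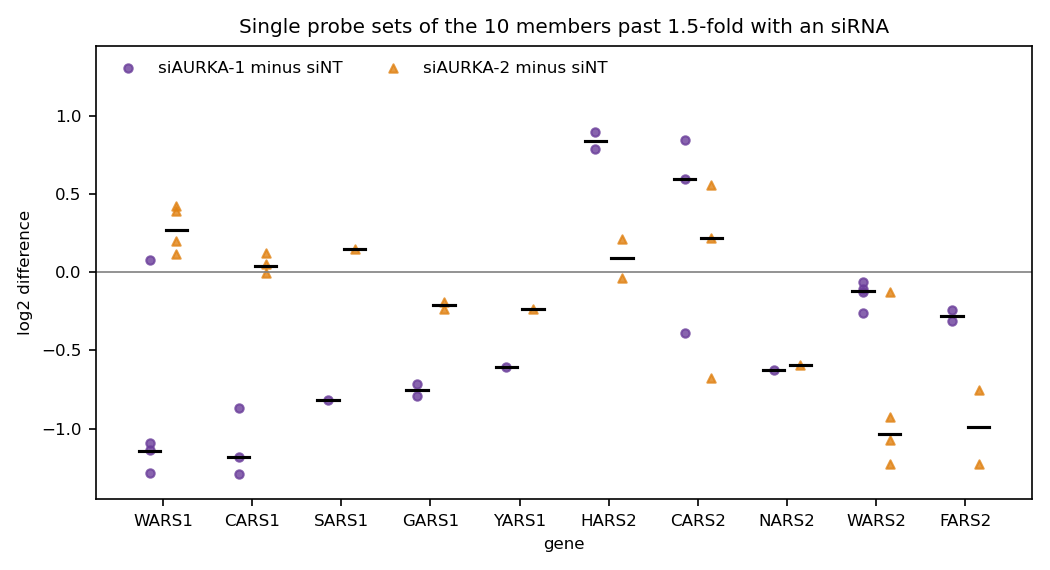
Log2 difference from siNT of single probe sets (points) for the 10 synthetase genes past 1.5-fold with siAURKA-1 (circles) or siAURKA-2 (triangles); black bars are the gene values. The CARS2 points lie on both sides of 0, and 1 WARS1 point stands apart from its 3 fellows.

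Genes for the same amino acid were set side by side in the 13 amino acids with one gene for each compartment. With siAURKA-1 against siNT the cytosolic gene lay below its mitochondrial counterpart in 11 of 13 pairs, by a median of -0.46, and by at least 1.5-fold in 5. Against siNT, whose array was low for CARS2, CARS1 and CARS2 were furthest apart (-1.78), followed by WARS1 and WARS2 (-1.02), YARS1 and YARS2 (-0.82), HARS1 and HARS2 (-0.77) and TARS1 and TARS2 (-0.65). Against DMSO the order turned, with WARS1 and WARS2 (-1.37) ahead of CARS1 and CARS2 (-1.24). The exceptions against siNT were asparagine, where NARS2 was the lower gene (0.53), and leucine (0.03).

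With siAURKA-2 against siNT the cytosolic gene was the lower in 7 of 13 pairs, by a median of -0.02, and tryptophan was the widest pair, with WARS1 1.30 above WARS2. For MLN8237 against DMSO the count was also 7 of 13, and no pair was 1.5-fold apart. Between siNT and DMSO it was 3 of 13, with no pair 1.5-fold apart. With the other control, siAURKA-1 against DMSO gave 10 of 13 pairs with a median of -0.46, and MLN8237 against siNT gave 9 of 13 with a median of -0.08. For siAURKA-2 the direction turned against DMSO, with the cytosolic gene lower in 5 of 13 pairs and higher in 8, a median of 0.13, and 3 pairs past 1.5-fold with the cytosolic gene higher (leucine, asparagine and tryptophan). The pairs were thus furthest apart, by their median, with siAURKA-1, and the difference from the other arrays was not tested.

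**Figure D4:**
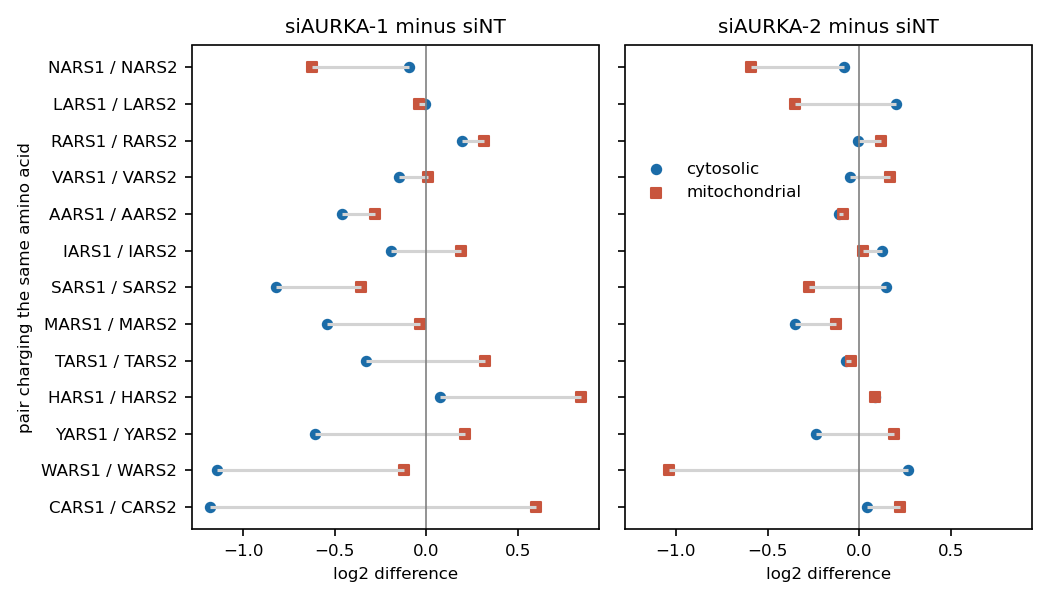
Log2 difference from siNT of the cytosolic (circle) and mitochondrial (square) synthetase gene for each of 13 amino acids, with siAURKA-1 on the left and siAURKA-2 on the right, joined by a line and ordered by the gap with siAURKA-1. The circle lies left of the square in 11 of 13 pairs on the left and 7 of 13 on the right.

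With siAURKA-2 the 17 cytosolic genes ranged from -0.35 (MARS1) to 0.27 (WARS1) against siNT, with a median of -0.05, and 0 were past 1.5-fold in either direction, where 3.11% of all genes were lower and 1.96% higher. The 16 mitochondrial genes had a median of -0.07, and 3 were at least 1.5-fold lower (18.8%), namely FARS2, NARS2 and WARS2. The cytosolic and mitochondrial medians differed by 0.02. Apart from those 3 genes, no synthetase gene of any compartment was past 1.5-fold with this siRNA.

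Compared directly, the siRNA arrays differed by at least 1.5-fold in 6 members. CARS1 (-1.22), SARS1 (-0.97) and WARS1 (-1.41), all cytosolic, were lower with siAURKA-1 (3 of 17, or 17.6%, where 3.99% of all genes were). FARS2 (0.71), HARS2 (0.75) and WARS2 (0.92), all mitochondrial, were higher (3 of 16, or 18.8%, where 3.68% of all genes were). In all, 14 of 17 cytosolic genes were lower and 12 of 16 mitochondrial genes higher with siAURKA-1 than with siAURKA-2, with medians of -0.19 and 0.16. Of all 18239 genes, 8119 were lower and 8294 higher.

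MLN8237 gave little difference in these genes. Against DMSO the cytosolic median was -0.04 and the mitochondrial median -0.01, and 0 of 35 members were past 1.5-fold, where 0.115% of all genes were lower and 0.367% higher; so few genes passed that a count of 0 is near the background. Members ranged from -0.38 for LARS2 to 0.13 for CARS2, and the median size of a cytosolic difference was 0.05, the same as over all genes (0.05). CARS1, SARS1 and GARS1, low with siAURKA-1, differed by -0.01, -0.08 and -0.08, and WARS1 by -0.26. Against siNT the cytosolic median was -0.02, and again 0 of 35 members were past 1.5-fold, where 0.965% of all genes were lower and 0.641% higher.

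The members were also grouped by enzyme architecture. Synthetases fall into class I and class II by the fold of their catalytic domain. With siAURKA-1 the 9 cytosolic class I genes had a median of -0.19 and the 7 of class II -0.25, EPRS1 joining both classes, and 3 genes and 1 gene, respectively, passed 1.5-fold downward. Part of the cytosolic enzymes sits in the multi-synthetase complex, a particle of several synthetases and scaffold proteins. The 7 members of the complex (EPRS1, IARS1, KARS1, LARS1, MARS1, QARS1 and RARS1) gave a siAURKA-1 median of -0.01 and 0 past 1.5-fold, while the 11 cytosolic genes outside it had a median of -0.33 with 4 past 1.5-fold downward. At 4.48% of all genes, 0 of 7 is no different from the background count. Neither contrast was tested. Of the 3 listed scaffold genes AIMP1 had a value, and its differences from siNT were 0.06 for siAURKA-1 and -0.23 for siAURKA-2.

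Promoters were examined because genes of one compartment were lower together and because ATF4 acts through a short element, the C/EBP-ATF response element, whose core was searched as TGATGNAA on both strands of RefSeq windows of 250 bases before to 50 bases after each start (GRCh38.p14). Of the members, 30 had a window, all but AARS2, LARS1, VARS1, VARS2 and YARS1. The core was found for 6 of 14 cytosolic genes (42.9%), for GARS1, and for 1 of 14 mitochondrial genes (7.14%), against 3.60% of the 14492 measured genes with a window and 3.62% of all windows. Those 14 mitochondrial genes include FARS2 and CARS2, whose listed starts lie at least 11073 and 7007 bases downstream of the gene's first base. The promoter at that first base was not searched for these genes. The sites are shown in 30 bases each, on the gene's strand with the core in capitals, since they sit close to the start in most of these genes; ASNS, the asparagine synthetase gene and a known ATF4 target, is added for comparison. A match is a description of the letters and not a bound site.
CARS1: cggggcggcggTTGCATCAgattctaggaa
MARS1: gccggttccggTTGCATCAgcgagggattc
TARS1: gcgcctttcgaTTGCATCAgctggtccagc
IARS1: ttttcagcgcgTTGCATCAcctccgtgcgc
AARS1: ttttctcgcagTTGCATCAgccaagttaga
GARS1: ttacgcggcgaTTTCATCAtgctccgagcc
NARS1: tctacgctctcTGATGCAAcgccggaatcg
YARS2: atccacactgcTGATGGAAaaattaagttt
ASNS: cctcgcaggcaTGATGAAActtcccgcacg

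Of the cytosolic genes, 5 hold TTGCATCA, the core read from the other strand as TGATGCAA, and NARS1 holds TGATGCAA itself. The printed 30 bases are chr11:3057407-3057436 for CARS1, chr12:57488053-57488082 for MARS1, chr5:33440956-33440985 for TARS1, chr9:92293692-92293721 for IARS1 and chr16:70289675-70289704 for AARS1. They are chr7:30594834-30594863 for GARS1, chr18:57621804-57621833 for NARS1, chr12:32756076-32756105 for YARS2 and chr7:97872458-97872487 for ASNS. CARS1, AARS1, IARS1, NARS1, YARS2 and ASNS are on the minus strand. In CARS1, MARS1 and IARS1 the core begins 2, 4 and 13 bases before the start, in TARS1 2 bases and in NARS1 14 bases after it, while in AARS1 and YARS2 it lies 187 and 197 bases before. In GARS1 it lies 33 bases before. The listed starts used for TARS1 and GARS1 lie 269 and 143 bases downstream of the first base of the gene.

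With siAURKA-1 all 7 cytosolic or shared genes with the core lay below siNT, from CARS1 (-1.18) to NARS1 (-0.10), with a median of -0.46. Of the 9 such genes with a window but without the core, 5 lay below, with a median of -0.07, and these include WARS1 (-1.14) and SARS1 (-0.82). With siAURKA-2 the medians were -0.09 and -0.03. YARS2, the mitochondrial gene with the core, was 0.21 above siNT with siAURKA-1. Over the 522 measured genes with the core the median was 0.00, with 6.13% at least 1.5-fold lower, against 4.62% of the 13970 genes with a window that lacks it. In these groups 43.1% and 42.6% of genes lay below siNT. The core stood in a larger share of cytosolic synthetase promoters than of measured promoters, a difference that was not tested, and the genes past 1.5-fold included 2 with it (CARS1 and GARS1) and 2 with a window that lacks it (WARS1 and SARS1).

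ATF4 and part of its pathway were lower on the same array. ATF4 stood at 0.09 with DMSO, 0.00 with MLN8237, 0.38 with siNT, -0.85 after siAURKA-1 and -0.06 after siAURKA-2, so that siAURKA-1 lay -1.22 from siNT and -0.94 from DMSO. ASNS stood at 0.17, -0.03, 0.00, -2.08 and 0.08 in the same order, lowest with siAURKA-1 alone. In a list of 28 genes, namely ATF4, its partners and targets, 13 lay 1.5-fold or more below siNT after siAURKA-1 and 0 above (all genes 4.48% and 2.57%), with a median of -0.47. Against DMSO 9 lay below and 0 above (all genes 3.57% and 3.27%), with a median of -0.31. The list was written with earlier results of these data known. Furthest below besides ASNS were SLC7A11, the cystine transporter (-1.62), and PSAT1 of serine synthesis (-1.61). The part of ATF4 in the synthetase values was not tested.

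With siAURKA-2 the ATF4 list had a median of -0.09, with MTHFD2 of mitochondrial folate metabolism (-0.63) and the glutamine transporter gene SLC1A5 (-0.81) lower, and DDIT3, encoding the stress factor CHOP (0.98), and SESN2, a leucine sensor of the mTORC1 pathway (0.61), higher (all genes 3.11% and 1.96%). Against DMSO its median was 0.02, with SLC1A5 and PSAT1 lower and DDIT3, DDIT4 and SESN2 higher (all genes 2.55% and 2.65%), so MTHFD2 no longer passed. With MLN8237 against DMSO SLC7A11 was lower (-0.66) and DDIT3 higher (0.77), with a list median of -0.03 (all genes 0.115% and 0.367%). Against siNT 22 of the 28 lay below 0 with MLN8237, where 9292 of all 18239 genes did, and the list median was -0.15. SLC7A11 (-1.22) and DDIT4, an mTORC1 inhibitor gene (-1.37), were past 2-fold lower, while DDIT3 was higher (0.91). Of all genes, 0.965% passed 1.5-fold downward and 0.641% upward. The MLN8237 values of this list thus depended on the control.

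**Figure D5:**
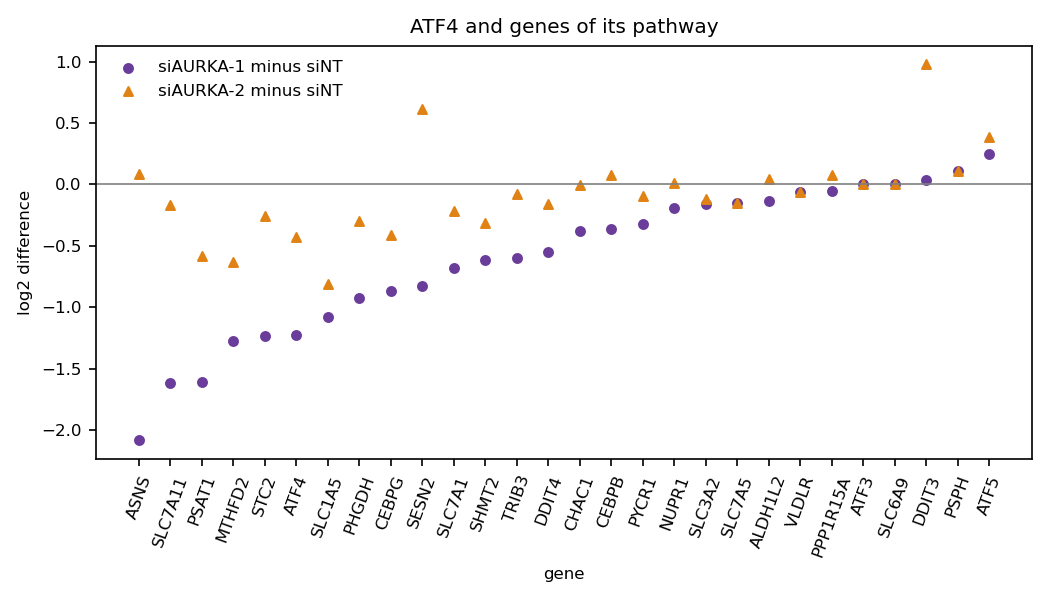
Log2 difference from siNT of ATF4 and 27 genes of its pathway with siAURKA-1 (circles) and siAURKA-2 (triangles), ordered by the siAURKA-1 value. ASNS is at -2.08 after siAURKA-1 and 0.08 after siAURKA-2, and DDIT3 at 0.04 and 0.98.

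Other steps around charged transfer RNA were described from fixed lists. The 9 genes listed as cytosolic elongation factors had a median of 0.02 with either siRNA. Not all of them carry or move charged transfer RNA, since the list also holds the kinase gene EEF2K. EIF5A2, a translation factor, was the 1 gene past 1.5-fold with siAURKA-1 (-1.16, where 4.48% of all genes were lower). For EIF5A2, however, siNT was 0.85 above DMSO, and against DMSO the difference was -0.30 and no longer passed. EEF1A1 and EEF2 were above siNT with siAURKA-1 (0.21 and 0.24). The 13 genes of eIF2, its exchange factor eIF2B and the kinases that regulate them had medians of -0.19 for the first siRNA and -0.10 for the second. Of these genes 0 were past 1.5-fold (all genes 4.48% lower and 2.57% higher with the first, 3.11% and 1.96% with the second). EIF2AK4, the kinase GCN2 that senses uncharged transfer RNA, gave -0.20 and 0.44.

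Of 18 measured genes of transfer RNA proofreading and modification, 3 passed 1.5-fold downward after siAURKA-1, and 0 did so after siAURKA-2 (all genes 4.48% and 3.11%). They were TRMT1, a guanosine dimethyltransferase (-0.74), OSGEP of the threonylcarbamoyl pathway (-0.67) and the pseudouridine synthase gene PUS7 (-0.59), of which PUS7 no longer passed against DMSO (-0.34). The 17 measured genes of mitochondrial translation factors had medians of -0.10 and -0.11. QRSL1, a subunit of the amidotransferase that makes mitochondrial glutaminyl transfer RNA in place of a glutaminyl synthetase, was the 1 gene past 1.5-fold, with both siRNAs (-0.72 and -0.75, where 4.48% and 3.11% of all genes were lower), and it passed with neither against DMSO (-0.43 and -0.45). On the arrays it stood at 0.00 with DMSO, 0.12 with MLN8237, 0.29 with siNT, -0.43 after siAURKA-1 and -0.45 after siAURKA-2, so both AURKA siRNA arrays lay below the other three and siNT was the highest.

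Markers of other cell types differed little between the arrays. Fibroblast, leukocyte and endothelial markers (6, 6 and 5 genes) had 0 members past 1.5-fold with either siRNA against siNT. Of all genes, 4.48% were lower and 2.57% higher with siAURKA-1, and 3.11% and 1.96% with siAURKA-2. At these shares, 0 in sets this small is near the background count. Their siAURKA-1 medians were 0.01, -0.06 and 0.00. The values hold no level, and genes that were not expressed would also differ little. These differences therefore cannot show whether such cells were present. Of 6 measured squamous epithelial markers, 1 was higher with siAURKA-1, the adhesion gene CDH1 (0.60), where 2.57% of all genes were. With siAURKA-2, 1 was lower, the basal keratin gene KRT5 (-1.82), where 3.11% of all genes were. Against DMSO 0 of these markers were past 1.5-fold with siAURKA-1 (all genes 3.57% lower and 3.27% higher), so CDH1 no longer passed. KRT5 was still lower with siAURKA-2 (-2.01, where 2.55% of all genes were lower). Their part in the synthetase values was not tested.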

How the data were processed

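Each of 5 treatments was measured on 1 array. RMA, a method of background correction, quantile normalization and probe summary, is named in the submitters' processing notes; its software, its version and the log base were not given in the sources used here. Deposited values were read as log2 signal. All 49386 probe sets had a median of 0 over the arrays, so the authors had centred them. For a single probe set, differences between arrays are unaffected. For a gene with several probe sets the difference can depend on the centring, because the median was taken on each array separately. It need not equal the difference of any one probe set.

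Probe sets naming 1 gene (45259) were matched by Entrez number to current symbols, and a gene's value on an array was the median of its probe sets, with pandas 2.3.3. Of the members, 27 had several probe sets, and 5 of these had one of opposite sign in siAURKA-1 minus siNT. No filter on low signal was possible. Comparisons were differences between 2 arrays, counted at 1.5-fold, with no test; the counting was tested on simulated data. All members could be named; of other genes, AURKA, ATF4, ASNS and at most the 3 furthest each way per list and comparison. Members and lists were chosen with earlier results of these data known. Promoter windows are RefSeq's. Alternatives were other folds, array centring, other summaries and sets of probe sets, other controls and GARS1 and KARS1 counted as cytosolic.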

Additional observations from a re-analysis of the deposited data

How the results depend on the processing

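With 1 array per treatment there is no spread, so a median was taken as moved past 0.1 and a count past 1.5 times. No paired analysis was possible because each treatment has 1 array. Over all alternatives, 223 values of medians and counts stayed within these bounds and 19 did not. With siAURKA-1 against siNT, cytosolic genes lower numbered 8 at a log2 difference of 0.32 and 2 at 2-fold, mitochondrial genes lower 2 and 0, and mitochondrial genes higher 0 at 2-fold. Mitochondrial genes higher numbered 1 with the mean of probe sets, without probe sets ending in _s_at or _x_at, against DMSO, and against the mean of both controls, in each case because CARS2 no longer passed (0.35, 0.23, 0.21 and 0.41). Against DMSO the cytosolic median was -0.36 and its distance from the mitochondrial one -0.34. With siAURKA-2, 1 cytosolic gene was lower at 0.32, and 1 mitochondrial gene at 2-fold. At 0.32, 1 mitochondrial gene was lower with MLN8237 and 2 with siNT against DMSO. Between the siRNAs, at 0.32, 5 cytosolic genes were lower, 1 cytosolic higher and 5 mitochondrial higher; at 2-fold 0 mitochondrial were higher. Of 89 alternative values of the 17 member differences past 1.5-fold, 85 stayed past it and 0 changed sign. The 4 others are those of CARS2. Part of the 85 could not differ, because the mean equals the median for members with 1 or 2 probe sets. Leaving out _s_at and _x_at probe sets likewise changed nothing for members without them. The other folds are not among the 89, and members that newly passed 1.5-fold were not counted. Leaving out _s_at and _x_at probe sets left 33 members. The 2 lost were IARS2 and YARS1, each read only by an _s_at probe set, so the YARS1 difference could not be checked this way.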
